A study of Mus musculus with 7 samples.

Results

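The members described here are 28 probe sets for RNA processing and translation, in 26 genes. They are the rows of the authors' list of 1632 probe sets whose gene name holds a word for ribonucleoproteins, splicing, RNA binding, ribosomal proteins, translation initiation or elongation, DEAD-box helicases, polyadenylation, tRNA or the nucleolus, with names that mention mitochondria left out. The array carries 45101 probe sets in all. The word for translation elongation caught 0 rows.

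Cells of the mouse mammary gland were sorted by Hoechst dye fluorescence into a side population (SP, cells that pump the dye out) and a non-side population (NSP), with 3 arrays each, and 1 array carries a universal mouse reference RNA. Per the design text, RNA was amplified in 2 rounds, and of 4 replicates of each population 2 chips were removed as outliers. SP cells are all those in a flow cytometry gate that verapamil, an efflux blocker, empties, so the gate does not fix a cell type. The sources used here give no genotype, strain, age, treatment or number of animals for either population. Whether each sort used other animals is not stated, and p-values speak only for the spread among these arrays, which may be technical.

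The authors had put every member on their list because SP and NSP differed on these same arrays, by a paired test and a minimum difference in their dChip values. The direction and the number of members that differ are thus a description and no independent evidence. In bulk samples such as these, fewer cells of a type and less RNA per cell cannot be told apart.

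An mRNA is spliced by the spliceosome, in which U2 auxiliary factor marks the end of the intron and SR proteins help to define exons, while other RNA-binding proteins shift the choice of splice sites. In the cytoplasm, eIF2 and its exchange factor eIF2B bring the first tRNA to the ribosome, and eIF4A, a DEAD-box helicase, unwinds the leader of the mRNA. Cytoplasmic polyadenylation element binding (CPEB) proteins attach to the end of chosen mRNAs and set how strongly these are translated.

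Among the members, most splicing, RNA-binding, ribosomal and initiation genes had lower signals in SP than in NSP cells, and the CPEB genes had higher ones. Of the 28 members, 21 were lower and 7 were higher in SP, with a median log2 difference (SP minus NSP) of -0.21, against -0.0080 over all 38115 probe sets tested. The differences were small, with a median absolute size of 0.24 for the members and 0.27 over all probe sets tested. Every member signal was at least 144, while array medians were 79.3 to 97.2, so the sets compared differ in intensity. Over all probe sets tested, 50.8% were lower and 49.2% higher in SP. The list itself leans the same way, with 54.7% of its 1632 probe sets lower in SP and a median of -0.12. In the 3 pairs of arrays 20, 24 and 22 members were lower in SP, with pair medians of -0.11, -0.30 and -0.21.

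With limma fitted over all probe sets and the sample number as a block, 0 of the 28 members passed an adjusted p (Benjamini-Hochberg) of 0.05, as did 0 of 38115 probe sets in all (0.0%). At an unadjusted p under 0.05 there were 5 members, 4 lower and 1 higher in SP, where 9.86% of all probe sets reached it (5.09% lower and 4.77% higher). When the fit also let the variance follow intensity, Nusap1 passed as higher in SP, and Rbmx and only 1 probe set of Sfpq as lower. These were 3 members, where 2.47% of all probe sets passed (1.16% higher and 1.31% lower in SP). That is 10.7% of the members, against 27.9% of the 1632 listed probe sets, a lower share than in the list they were taken from. Without the block 0 members passed, against 0.0157% of all probe sets (0.00262% higher and 0.0131% lower in SP). With the trend and no block 1 member passed, Nusap1, against 1.0% of all probe sets (0.352% higher and 0.648% lower in SP). Members' adjusted p lay between 0.40 and 0.95 with the block.

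The 3 SP signals lay below all 3 NSP signals for 7 members and above them for 1, where 7.57% and 6.74% of all probe sets did so, and the groups overlapped for the other 20. For 18 members SP was lower in 3 of 3 pairs and for 3 it was higher, against 16.8% and 16.3% of all probe sets. The authors' rule used these pairs, so nothing is read from those shares. Groups did not overlap for 28.6% of the members, 49.8% of all 1632 listed probe sets and 14.3% of all probe sets tested.

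**Figure D1:**
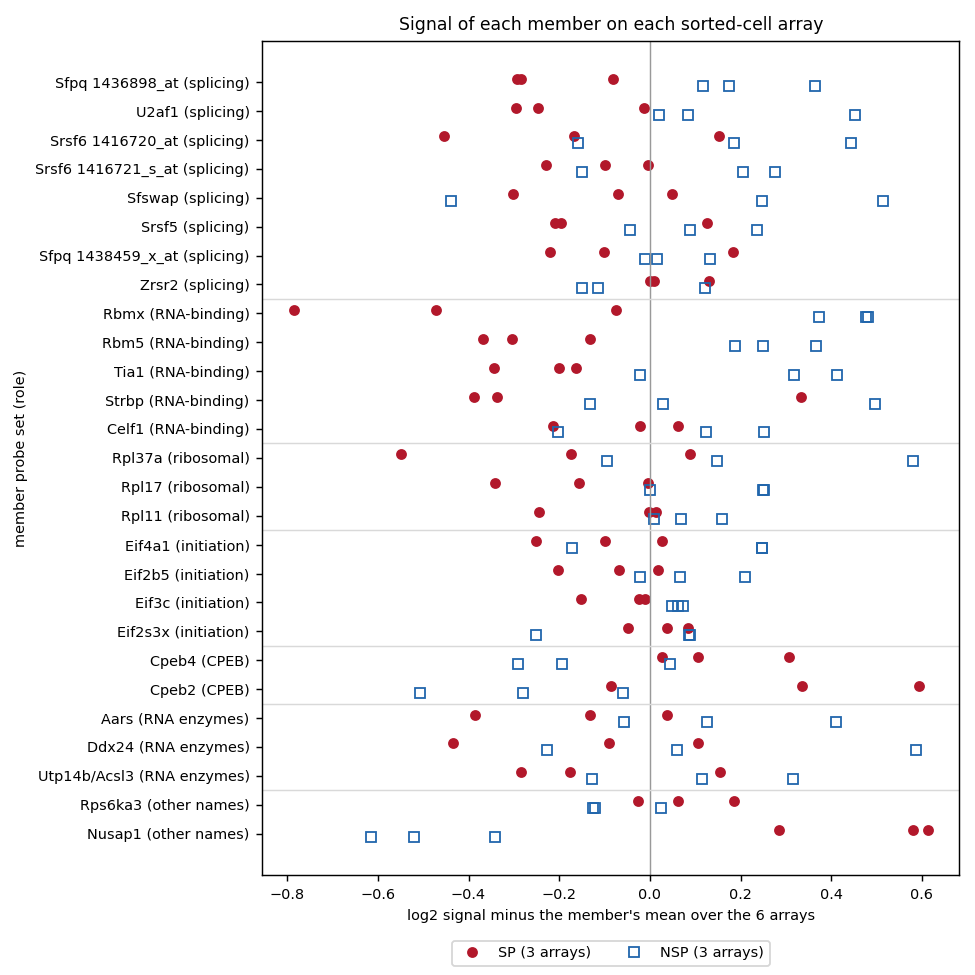
Log2 signal of the members named in the text on each of the 3 SP arrays (filled circles) and 3 NSP arrays (open squares), as the distance from that member's mean over the 6 arrays; lines part the roles. SP circles lie wholly left of the NSP squares for 7 members, among them Rbmx, Rbm5 and Tia1, and wholly right of them for Nusap1.

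On the authors' deposited values, which are dChip estimates on a log scale read as log2, the same 21 members were lower and 7 higher, and the groups did not overlap for 13 of 28. In the authors' deposited table the members' absolute differences ran from 0.19 to 1.19, with a median of 0.28 against 0.38 for all listed probe sets. Of the 28, 7 differed by at least 0.4 in that table (47.8% of listed probe sets did) and 1 by at least 0.7. Those just inside the authors' minimum were Rpl11, Srsf5 and the _s_at probe set of Srsf6, each at -0.19 in the authors' deposited table, and rows just outside it are not analysed here. All 28 members were called present on all 6 arrays by the authors, as were 91.2% of the listed probe sets.

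**Figure D2:**
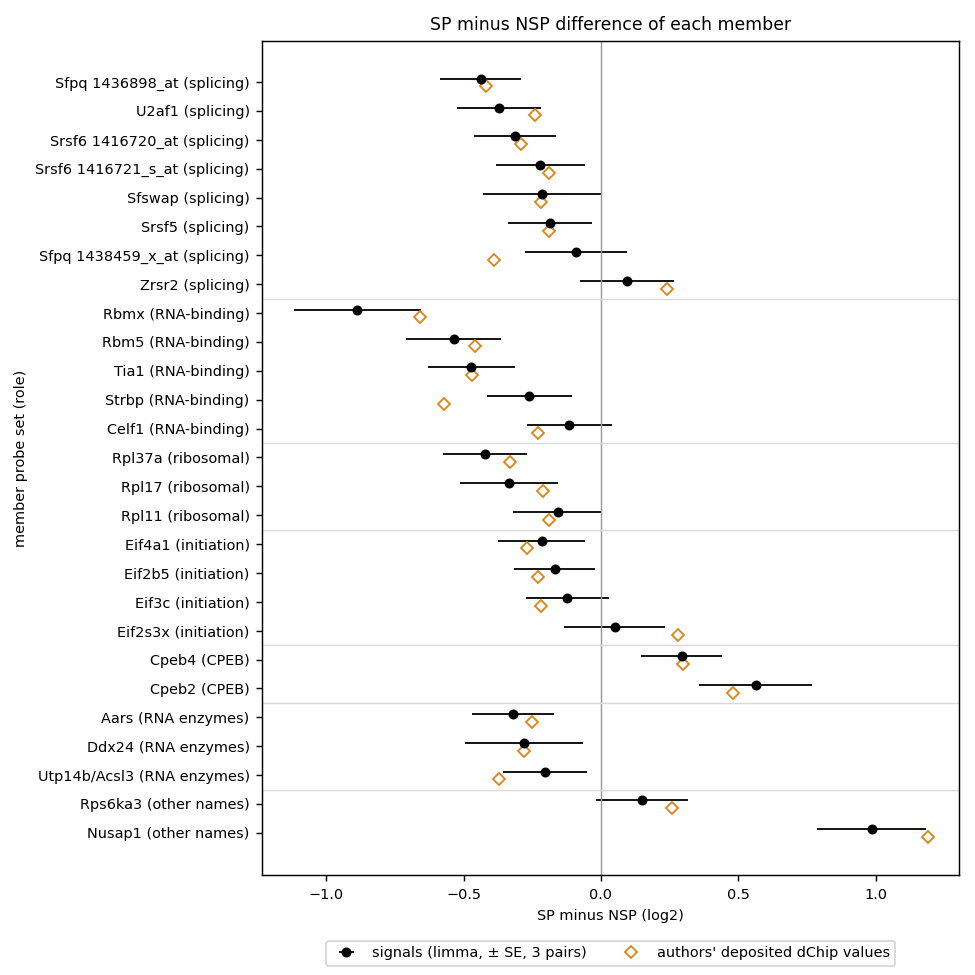
SP minus NSP difference of the members named in the text on a log2 scale, from the deposited signals (filled circles) and from the authors' dChip values (open diamonds). Bars on the circles are limma's moderated standard error from 3 pairs, which draws on the variance of all probe sets tested. Both values lie on the same side of 0 for all members shown, and they stand farthest apart for Strbp and for the _x_at probe set of Sfpq.

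RefSeq promoter windows (mouse build GRCm38.p6, 250 bases before to 50 after the gene's start) were at hand for 22 of the 25 genes named here and were searched on both strands for a few short motifs, chosen with the members known. The ETS-type core CCGGAAG stood in 5 of the 22 windows, in Srsf5, Sfswap, Eif3c, Cpeb4 and Rpl11, and in 8.86% of all 32851 windows of the table. The E-box CACGTG stood in 2 (7.15% of all windows), the NRF1-type palindrome GCGCATGCGC in 2 (0.971%) and TATAAA in 1 (13.6%). The 120 bases up to the start are shown for the 4 genes that hold the ETS-type core there, each with its matches in capitals (CTTCCGG is the core on the other strand), because they include members both lower and higher in SP.
Srsf5: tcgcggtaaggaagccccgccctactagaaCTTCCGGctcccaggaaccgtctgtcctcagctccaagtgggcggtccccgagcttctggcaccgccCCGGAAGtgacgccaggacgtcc
Sfswap: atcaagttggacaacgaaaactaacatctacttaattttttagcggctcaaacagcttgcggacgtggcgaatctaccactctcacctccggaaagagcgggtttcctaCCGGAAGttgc
Eif3c: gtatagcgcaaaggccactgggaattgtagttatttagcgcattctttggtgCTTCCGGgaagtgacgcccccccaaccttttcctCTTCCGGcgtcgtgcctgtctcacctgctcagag
Cpeb4: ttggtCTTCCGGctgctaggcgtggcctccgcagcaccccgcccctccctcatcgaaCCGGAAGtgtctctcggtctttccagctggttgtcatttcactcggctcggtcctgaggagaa
They lie at chr12:80945379-80945498 (plus strand, Srsf5), chr5:129501111-129501230 (plus strand, Sfswap), chr7:126566367-126566486 (minus strand, Eif3c) and chr11:31870820-31870939 (plus strand, Cpeb4). Srsf5, Eif3c and Cpeb4 hold 2 matches each and Sfswap holds 1. Of these genes Cpeb4 was higher in SP and the others were lower, so the motif stood on both sides of the difference. A match is a string of letters and no measured binding. Each member gene counted with its first window only, while the shares over all windows counted every window.

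Among the splicing factors, 7 of 8 probe sets were lower in SP, with a median log2 difference of -0.22, and 0 passed the block fit. Sfpq, a proline- and glutamine-rich protein that binds polypyrimidine tracts and takes part in splicing and transcription, has 2 probe sets. The set without a suffix for shared probes had signals of 2392, 2078 and 2066 in SP cells, against 3259, 2746 and 2858 in NSP cells. All SP signals were below all NSP signals, and the difference was -0.44 ± 0.15 (moderated SE, limma adjusted p = 0.50, and 0.0202 with an intensity trend). The ± values of SP minus NSP differences here and below are limma's moderated SEs, which draw on the variance of all probe sets tested. They are not the scatter of a member's own pairs, which for this set were -0.45, -0.40 and -0.47. The set with the ending _x_at had 1635, 1343 and 1236 in SP cells, against 1456, 1429 and 1578 in NSP cells. Here the groups overlapped and the difference was -0.092 ± 0.19 (limma adjusted p = 0.90), with the opposite sign without pair 3 (0.038). The 2 probe sets of Sfpq thus gave differences of unequal size, while in the authors' deposited table they stood at -0.42 and -0.39. The ending _x_at marks a set whose probes may also match other transcripts, here also borne by the sets for Eif3c and Rpl17, and the Sfpq row names a RIKEN gene as well.

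U2af1 encodes the small subunit of U2 auxiliary factor, which reads the last bases of the intron. Its signals were 1909, 1975 and 2320 in SP cells, against 2375, 2481 and 3205 in NSP cells, without overlap. The difference was -0.37 ± 0.15 (limma adjusted p = 0.55). Zrsr2, a relative of U2af1 that acts in splicing of the minor class of introns in human cells, had 1376, 1368 and 1496 in SP cells, against 1488, 1263 and 1233 in NSP cells. It was the only member of the splicing group with a higher mean in SP (0.094 ± 0.17, adjusted p = 0.88 in limma), and its groups overlapped.

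Srsf5 and Srsf6 encode SR proteins, which bind exons and recruit the spliceosome. Both probe sets of Srsf6 were lower in SP in 3 of 3 pairs. The set without a suffix had 536, 655 and 816 in SP cells, against 658, 836 and 999 in NSP cells. The SP arrays overlapped with the NSP arrays, while the pair differences of -0.29, -0.35 and -0.29 were nearly alike (-0.31 ± 0.15, limma adjusted p = 0.58). The set with the ending _s_at, whose probes are shared by related transcripts, differed by -0.22 ± 0.16 and Srsf5 by -0.19 ± 0.15, also lower in 3 of 3 pairs. Srsf5 had signals of 13756, 11001 and 10910 in SP cells, against 14853, 13408 and 12227 in NSP cells. Sfswap, a regulator of splicing related to the fly gene suppressor of white-apricot, differed by -0.22 ± 0.21, with pair 1 in the other direction (0.14) and pairs 2 and 3 at -0.20 and -0.58.

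All 5 genes caught only by the words RNA binding were lower in SP in 3 of 3 pairs, with a median of -0.47. Rbmx, an X-linked hnRNP protein that binds nascent transcripts, had the lowest difference of all members. Its signals were 257, 319 and 420 in SP cells, against 617, 615 and 573 in NSP cells. The NSP signals lay close together and all above the SP signals, whose order gave pair differences of -1.27, -0.95 and -0.45. The difference was -0.89 ± 0.23, so that NSP was 1.85-fold higher (limma adjusted p = 0.44, 0.32 without the block and 0.0355 with an intensity trend beside it).

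Rbm5, which regulates the choice of exons in apoptosis genes in human cells, had 151, 144 and 170 in SP cells, against 222, 240 and 212 in NSP cells. The groups did not overlap, and the difference was -0.54 ± 0.17 (limma adjusted p = 0.49). Tia1, a protein of stress granules that binds uridine-rich RNA, had 518, 587 and 572 in SP cells, against 648, 875 and 819 in NSP cells. SP lay below NSP on every array, with a difference of -0.47 ± 0.16 (limma adjusted p = 0.50).

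Strbp, a protein first described around the nucleus of spermatids, had 191, 198 and 315 in SP cells, against 228, 255 and 352 in NSP cells. Each SP array was below the NSP array of its own number, while the groups overlapped (-0.26 ± 0.15). In the authors' deposited table Strbp differed by -0.57, more than on the signals. Celf1, which binds GU-rich elements and acts in splicing and mRNA decay, differed by -0.12 ± 0.15, with pair differences of -0.011, -0.19 and -0.14.

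Of 4 ribosomal protein probe sets, 3 were lower in SP, each in 3 of 3 pairs, and 1 was higher, with 0 past the block fit. Rpl37a had 1320, 1019 and 1584 in SP cells, against 1651, 1396 and 2228 in NSP cells. The groups overlapped, while every pair ran the same way (-0.32, -0.45 and -0.49; mean -0.42 ± 0.15, limma adjusted p = 0.52 and 0.0532 with an intensity trend). Rpl17 had 6884, 6058 and 7646 in SP cells, against 7670, 9125 and 9131 in NSP cells. Its groups did not overlap, but the smallest NSP signal stood just above the largest SP signal (-0.33 ± 0.18, limma adjusted p = 0.61). Rpl11, a large subunit protein that also binds Mdm2, differed by -0.16 ± 0.16, of which pair 1 showed little (-0.011). Ribosomal protein genes have many near-identical pseudogene copies, and which copies these probes match is not given in the sources used here, so their values are uncertain for that reason.

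Of the 4 initiation factor genes, 3 were lower in SP in 3 of 3 pairs by small amounts. Eif3c, a core subunit of the eIF3 complex, had 11915, 13017 and 13143 in SP cells, against 13689, 13820 and 13931 in NSP cells. The groups did not overlap although the difference was only -0.12 ± 0.15 (1.09-fold higher in NSP, limma adjusted p = 0.82). Eif4a1, the helicase, differed by -0.22 ± 0.16 and Eif2b5, the catalytic subunit of the exchange factor eIF2B, by -0.17 ± 0.15, both with overlapping groups. Eif2s3x, the X-linked gene of the third subunit of eIF2, had 1927, 1815 and 1990 in SP cells, against 1996, 1992 and 1576 in NSP cells. The SP signals lay within the range of the NSP signals, and the difference was 0.050 ± 0.18 (limma adjusted p = 0.95), with the sign reversed without pair 3 (-0.093). On the authors' values, in contrast, SP was above NSP in each pair, and the authors' deposited table gives 0.28.

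Both CPEB genes were higher in SP in 3 of 3 pairs. Cpeb2 had 1675, 1047 and 1402 in SP cells, against 1066, 915 and 782 in NSP cells. SP replicate 2 lay just below NSP replicate 1, so the groups overlapped on the signals, and the difference was 0.56 ± 0.21 (1.48-fold, limma adjusted p = 0.52, and 0.0594 with an intensity trend). Cpeb4 had 4195, 3652 and 3453 in SP cells, against 3497, 2964 and 2774 in NSP cells. Its pair differences were 0.26, 0.30 and 0.32, closer to each other than for most members, and their mean was 0.29 ± 0.15 (limma adjusted p = 0.60). In the authors' deposited table they differed by 0.48 (Cpeb2) and 0.30 (Cpeb4), and on the authors' values all SP arrays stood above all NSP arrays for both.

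The remaining RNA enzymes were lower in SP. Aars, which charges tRNA with alanine, had 1685, 1412 and 1894 in SP cells, against 2014, 1774 and 2453 in NSP cells. Each pair was lower in SP (-0.32 ± 0.15, limma adjusted p = 0.58). Ddx24, a DEAD-box helicase, differed by -0.28 ± 0.21, with pair 1 higher in SP (0.14) and pairs 2 and 3 lower (-0.49 and -0.48). The row named for Utp14b, a mouse copy of a gene for processing of ribosomal RNA, carries the gene number of Acsl3, a fatty acid CoA ligase. Both genes start at the same base in the RefSeq table, so this row (-0.20 ± 0.15) may measure either.

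Finally, 2 rows were caught by a word and encode no part of the RNA machinery. Nusap1, whose name holds "nucleolar", is a protein of the mitotic spindle. It had 536, 673 and 658 in SP cells, against 347, 307 and 287 in NSP cells. All SP signals were above all NSP signals, and the difference of 0.99 ± 0.20 (1.98-fold, limma adjusted p = 0.40, and 0.0152 with an intensity trend) was the highest among the members. Rps6ka3, a kinase that phosphorylates ribosomal protein S6 among other substrates, differed by 0.15 ± 0.17. Without these 2 rows, 21 of 26 members were lower in SP, with a median of -0.22.

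The reference RNA was compared with the sorted cells on 1 array, so no test can be made. The reference signal was above all 6 sorted-cell arrays for 16 members (26.7% of all probe sets tested), below all of them for 5 (23.9%) and between for 7. The median log2 distance from the reference was -0.53 for SP and -0.23 for NSP over the members, against -0.025 for SP and -0.012 for NSP over all probe sets. For 19 of 28 members the mean SP signal was under the mean NSP signal and that under the reference, an order found for 23.7% of all probe sets. Since the list fixes which of SP and NSP is lower, only the place of the reference adds to what the list says.

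All 5 RNA-binding genes stood in that order. For Rbm5 the reference signal of 687 was 4.44 times the SP mean and 3.06 times the NSP mean (geometric means, n = 3 each). Rbmx was nearly as high in NSP as in the reference (668), which was 2.05 times the SP mean and 1.11 times the NSP mean. Nusap1 stood farthest off, with a reference signal of 4565, against 622 ± 75 in SP and 314 ± 31 in NSP cells (SD, n = 3 each). Of the initiation factors, Eif2s3x went the other way, with a reference signal of 891, below each sorted-cell array.

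**Figure D3:**
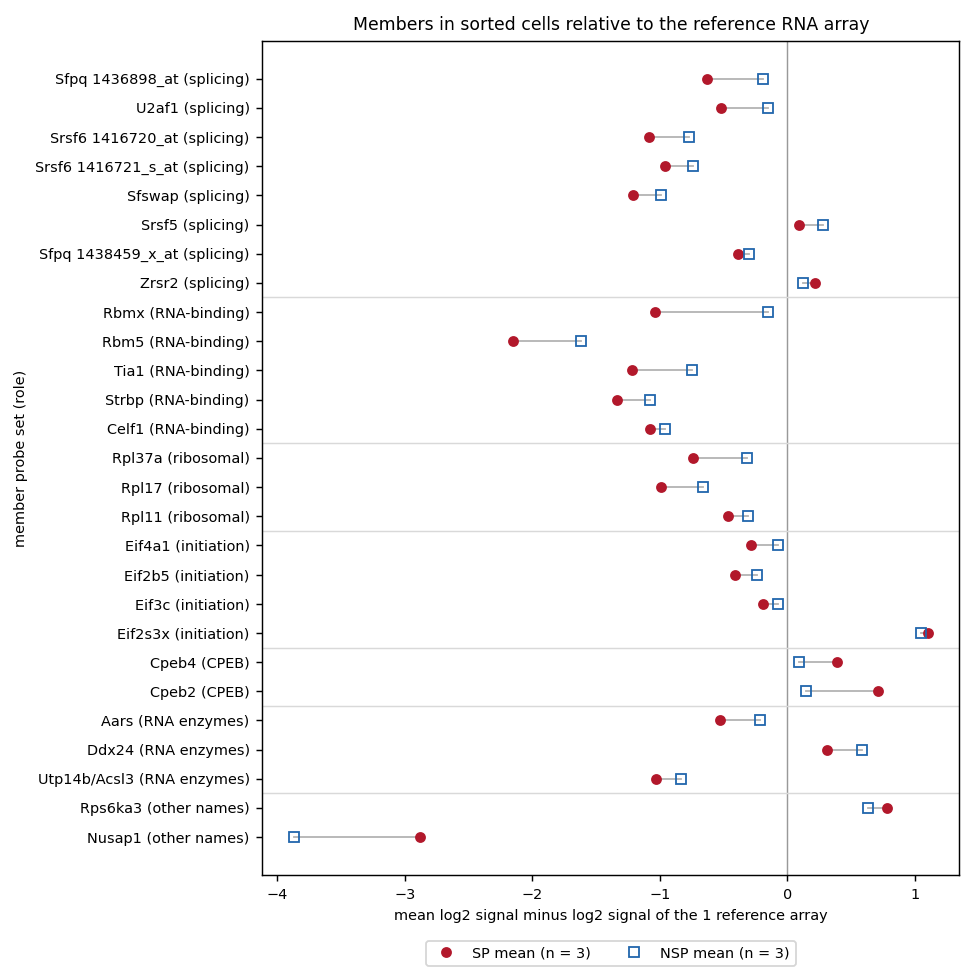
Mean log2 signal of the members named in the text in SP cells (filled circles) and NSP cells (open squares, n = 3 arrays each) minus the log2 signal on the 1 reference RNA array, which sits at 0. Both populations lie left of 0 for most splicing and all RNA-binding members, with SP farther left, and right of 0 for Eif2s3x and the CPEB genes, among others.

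Longer lists of the same pathways, in so far as the authors' list names their genes, held few further genes. Of 89 spliceosome genes and splicing regulators, 9 were named, 4 of them members. All 9 were lower in SP, with a median of -0.27. The splicing members Sfpq, Sfswap and Zrsr2 were not among the 9, and Zrsr2 was higher in SP (0.094 ± 0.17). Of all listed probe sets 54.7% were lower in SP, and the listing used this same contrast. Among the 5 of the 9 that are no members, Slu7, a late splicing factor, differed by -0.42 ± 0.16 and Crnkl1 by -0.38 ± 0.16. Of 67 translation factors 5 were named, 4 lower and 1 higher. Of 61 genes for the formation of mRNA ends and for decay 3 were named, Cnot6l, a deadenylase subunit (-0.59 ± 0.15), Pabpn1 (-0.44 ± 0.20) and Elavl1, which stabilises AU-rich mRNAs (0.89 ± 0.22). Of 80 genes of ribosome biogenesis 1 was named, Taf1d (0.70 ± 0.26), of 38 for tRNA charging 1, the member Aars, and of 18 for RNA export 1, Thoc5 (0.011 ± 0.16). None of the genes that these longer lists named passed the limma block fit, alone or with an intensity trend. The genes the authors did not list have no name here.

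Named markers of several cell types were on the authors' list too, and 0 of them passed the limma block fit. With an intensity trend and the block, 15 endothelial, 5 basal, 5 luminal, 3 leukocyte, 1 fibroblast and 8 proliferation genes passed. In that fit 2.47% of all probe sets tested and 27.9% of the listed probe sets passed. The authors listed these markers for differing on these same arrays, so their counts and directions are a description only. Of 22 endothelial genes 15 were named and all were higher in SP (median 1.504), with summed signals of 17456 to 21387 in SP and 5488 to 5861 in NSP cells. Of 14 luminal genes 5 were named, all lower in SP (median -1.55; sums of 9537.5 to 17175 in SP and 29874 to 35394 in NSP cells), and of 10 basal genes 6, all lower (median -1.55; 19243 to 23565 in SP and 24955 to 29384 in NSP cells). Of 12 leukocyte genes 5 were named, 4 lower and 1 higher (502 to 760 in SP and 3446.5 to 11174 in NSP cells). Of 8 fibroblast genes 3 were named, all higher (16005 to 18323 in SP and 8174 to 10871 in NSP cells). Acta2 alone (difference -0.21) gave most of the basal sums, and Dcn alone (1.01) most of the fibroblast sums. Of 28 proliferation genes 17 were named, all higher in SP (median 0.53; 42242 to 54164 in SP and 27373 to 39210 in NSP cells). In each of these lists 0 named genes lay at the floor on all 3 arrays of a population. Their part in the members' differences was not tested.

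Signals of control probe sets along Actb and Gapdh transcripts lay beside these results. Set at the 3' end over that at the 5' end, on the log2 scale, they stood at 3.85 ± 0.50 in SP and 3.28 ± 0.80 in NSP samples for Actb (SD, n = 3; exact permutation p = 0.5, two-sided), and at 3.65 ± 0.66 in SP and 2.87 ± 0.64 in NSP samples for Gapdh (exact permutation p = 0.3). Over the 4 ratios computed the adjusted p was 0.5 for both of these. The smallest p that 3 against 3 arrays allow is 0.1. Both ratios were higher in SP in 3 of 3 pairs, but the permutation test took the arrays as unpaired. On the 1 reference array the ratio was 3.48 for Actb, between the SP and NSP means, and 2.18 for Gapdh, below both means. The part of these ratios in the members' differences, and in their distance from the reference, was not tested.

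**Figure D4:**
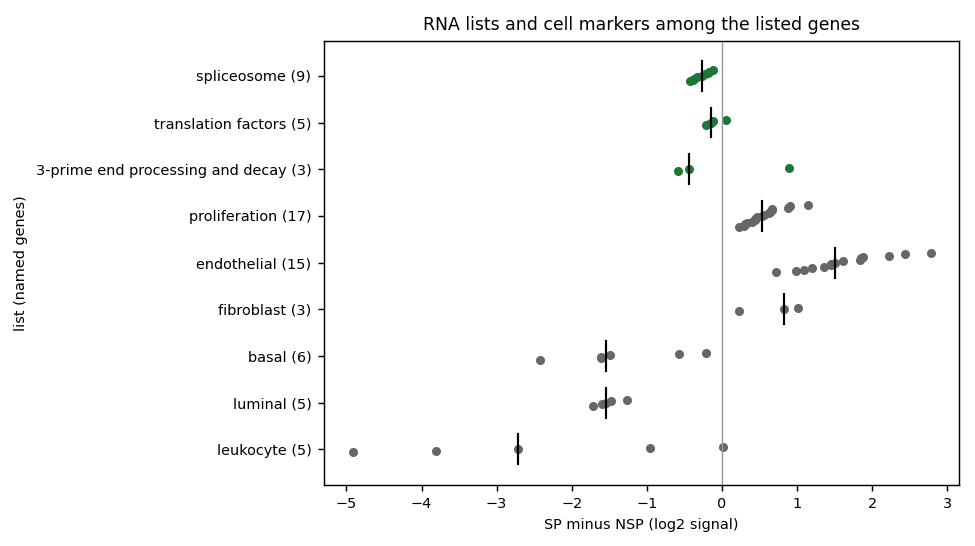
SP minus NSP log2 difference of each named gene (points) in RNA pathway lists (green, top) and in lists of cell markers (grey), with the list median as a bar and the number of named genes in brackets. The 9 spliceosome genes lie between -0.42 and -0.12, while endothelial genes reach 2.78 and leukocyte genes -4.91.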

How the data were processed

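Signals of 7 arrays were used as the authors deposited them, as linear intensity per probe set; the submitters' processing notes name MAS5, without a version or scaling (array medians 79.3 to 97.2). The authors' deposited list gives dChip values and differences on a log scale, read as log2, present calls as percent of arrays, and the score and p-value of a paired test, per the file headers. Its highest value, 14.33, would be 20595 as a log2 and 1672784 as a natural log, where the highest signal is 58280; the list titles match natural logs better, so log2 remains a reading. Members were found by the words in the gene column and named through gene numbers (GRCm38.p6); all 28 matched, and of 1632 listed rows 162 had no name and 10 had several.

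Signals under the pooled 20th percentile (17) were raised to that value before log2, and 38115 probe sets above it on at least 3 of 6 arrays were tested with limma 3.58.1 (R 4.3.3), two-sided, with 64 control sets left out and the sample number as a block. All 28 members passed this filter, with every signal at least 144. The block was used because titles give 2 of 3 pairs a shared date and the authors compared pairs, per the file headers. Deviations from group means correlated within pairs at 0.039, 0.041 and 0.12. Between SP and NSP arrays of unlike number they correlated at -0.064 to 0.021. Adjusted p-values are Benjamini-Hochberg over all probe sets tested. Standard errors of SP minus NSP differences are limma's moderated ones, with each set's variance drawn towards that of all probe sets tested. The number of arrays limits the precision. Alternatives covered block, variance trend, normalization, floor, filter, membership and leaving out pairs. The members, lists and fit were chosen with earlier results of these data known. Of the members, 1 is counted but not reported singly here, and all others are named. Of other list genes, up to 3 of smallest p per list are named, and Acta2 for its share of a sum.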

Additional observations from a re-analysis of the deposited data

How the results depend on the processing

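The members' 21 to 7 split held under each of the 12 settings that changed block, variance model, normalization, floor, filter or pairs, except that 6 were higher without pair 1. Against 0 members and 0 probe sets past the threshold with the replicate block, limma without the block called 0 members and 6 probe sets, with an intensity trend and the block 3 members and 942 probe sets, and with the trend and no block 1 member and 381 probe sets; the cause was not tested. Members whose groups do not overlap numbered 8, and 6 with median centring. They numbered 5 without the 5 genes caught by the words RNA binding alone, as fewer were counted. Without a pair they numbered 12 to 21, since 2 arrays against 2 overlap less often. Of 351 alternative values of the members reported singly, 345 kept direction and side. The member counted but not reported singly is not among them. A further 4 passed the threshold with a trend (Nusap1 in both such fits, Rbmx and the Sfpq set without a suffix with the block). The other 2 turned direction. With 1 pair left out, Eif2s3x ran between -0.093 (pair 3 left out) and 0.14. The _x_at set of Sfpq ran between -0.22 and 0.038 (pair 3 left out). The median difference lay between -0.25 and -0.16. All members stood above the floor on every array. With the intensity trend and the block the standard error was 0.27 for Rbm5 and 0.084 for the Sfpq set without a suffix, against 0.17 and 0.15 without the trend.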
